A study of Mus musculus with 18 samples.

Results

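The 10 genes Egln1, Egln3, Bnip3, Fam162a, Ak4, Vegfa, Ero1l, P4ha1, Ankrd37 and Ndrg1 are transcribed in response to low oxygen and encode no enzyme of glycolysis. They are 10 of the 55487 genes of the deposited count table and were chosen by their lower counts in 41BB+ than in 41BB- CD8+ T cells at 72 h of stimulation, so their values at 72 h are given as a description and were not tested. Wild-type C57BL/6J mice supplied spleen and lymph node cells, from which CD8+ T cells were sorted by 41BB (CD137, a costimulatory receptor of activated T cells encoded by Tnfrsf9). RNA of 41BB+ cells (called Tpam cells in the study) and of 41BB- cells (its conventional cells) was taken straight after the sort, with no activation, or after 24 h or 72 h in IMDM medium with Dynabeads against CD3 and CD28. The 6 groups of population and time held 3 libraries each, described as biological triplicates, and the sources used here do not give the animals' age, the number of animals per library or the oxygen level of the cultures.

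Hypoxia-inducible factor (HIF) is a pair of an oxygen-labile alpha subunit, such as the product of Hif1a, and the stable partner encoded by Arnt. With oxygen present, prolyl hydroxylases of the Egln family mark the alpha subunit, the von Hippel-Lindau protein (Vhl) recognises the mark, and the subunit is degraded. When it is not degraded, the pair binds hypoxia response elements in target genes, and in T cells the alpha subunit is also known to accumulate after antigen receptor stimulation.

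The core of a hypoxia response element is ACGTG or GCGTG, which reads CACGT or CACGC on the other strand. RefSeq promoter windows (GRCm38.p6, from 250 bases before to 50 bases after the start site) were at hand for 9 of the 10 genes, Ero1l under its RefSeq name Ero1a, and not for Ndrg1. At least 1 of these letter runs stood in 12 of their 13 windows, which is 92.3%, against 43.8% of all 32851 windows of the same length. Ak4 alone had 4 of the 13 windows, all with a match, so the windows are not separate genes. A match stood in 76.7% of 30 windows of hypoxia-induced glycolysis genes. For other hypoxia-induced genes outside glycolysis it was 75.8% of 33 windows. The 13 windows of the 9 genes were rich in G and C, with 54.7% to 86.0% GC, and 63.4% of all windows in that range held a match. The median GC was 69.0% in the 13 windows and 63.0% in all windows of that range, so the 2 sets were not matched in GC. The following stretches of 60 bases lie upstream of the RefSeq start site in 8 of the genes. They are shown because they hold the densest runs of the core letters outside annotated exons, on the gene's strand, with matches in capitals.

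Egln1: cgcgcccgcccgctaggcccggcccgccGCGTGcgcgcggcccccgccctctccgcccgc
Egln3: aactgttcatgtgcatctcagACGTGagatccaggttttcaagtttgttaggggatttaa
Bnip3: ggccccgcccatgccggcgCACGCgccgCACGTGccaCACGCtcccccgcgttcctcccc
Fam162a: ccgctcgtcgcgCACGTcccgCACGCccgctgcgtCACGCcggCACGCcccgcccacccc
Ak4: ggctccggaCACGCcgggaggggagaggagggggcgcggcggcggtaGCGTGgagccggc
Ero1l: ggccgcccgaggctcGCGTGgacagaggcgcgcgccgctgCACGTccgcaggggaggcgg
P4ha1: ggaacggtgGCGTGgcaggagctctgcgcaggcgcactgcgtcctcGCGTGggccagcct
Ankrd37: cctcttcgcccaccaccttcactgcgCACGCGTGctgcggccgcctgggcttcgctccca

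These stretches lie at chr8:124949349-124949408 (minus strand) for Egln1, chr12:54204065-54204124 (minus) for Egln3, chr7:138909583-138909642 (minus) for Bnip3, chr16:36071595-36071654 (minus) for Fam162a, chr4:101419206-101419265 (plus) for Ak4, chr14:45318616-45318675 (minus) for Ero1l, chr10:59323124-59323183 (plus) for P4ha1 and chr8:45999972-46000031 (minus) for Ankrd37. Fam162a had 4 matches in its stretch and 6 in its whole window, the highest number of the 9 genes. Bnip3 had 3 matches in its stretch, the middle of which reads the same on both strands. In Ankrd37 the 2 matches overlap, 1 on each strand. The stretches of Ero1l and Ankrd37 lie inside the gene coordinates given below, so they are upstream of the RefSeq start site alone. The window at the most upstream start site of Vegfa held none, and its other window held a match. Each match is a description of letters, and binding of HIF was not measured.

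**Figure D1:**
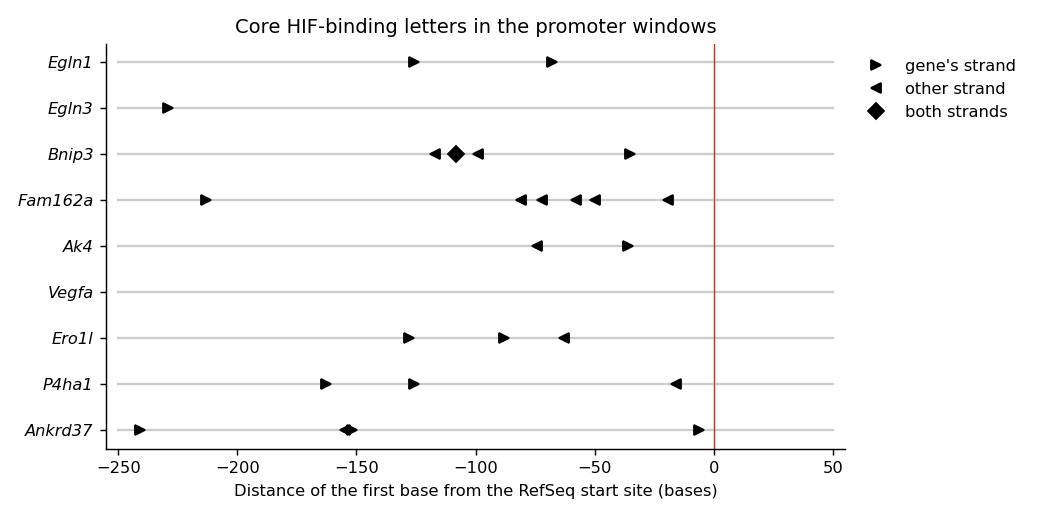
Position of the core letters of the hypoxia response element in the most upstream RefSeq promoter window of 9 genes, as distance in bases from the start site (red line), with the symbol giving the strand. Fam162a had 6 places and Bnip3 and Ankrd37 had 4 each, all upstream of the start site, and Vegfa had 0.

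Total counts per library ran from 3085241 to 4239795, and mitochondrial genes took 6.15% to 11.4% of them. Levels are CPM, counts over the library total times 1000000, given as mean ± SD of 3 libraries. Differences are log2 fold changes ± SE from 1 edgeR fit over all 18 libraries, positive where 41BB+ cells or the later time were higher. All 10 genes passed the filter on low counts, as did 13150 genes in all. In these bulk libraries, fewer cells with a transcript and less transcript per cell cannot be told apart. Tnfrsf9 checked the sort at 0 h, with 389 ± 27.5 CPM in 41BB+ and 6.74 ± 1.75 in 41BB- cells, and by 72 h the order had turned round, with 21.2 ± 11.4 and 52.4 ± 8.68 CPM.

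At 72 h all 3 libraries of 41BB+ cells lay below all 3 of 41BB- cells for each of the 10 genes. The choice of the genes fixed this direction and favoured such separation, and 20.5% of all genes tested were separated that way. The median log2 fold change of the 10 was -2.17, against -0.04 over all genes tested. At 24 h none of the 10 genes differed by edgeR's test, and at 0 h Fam162a and Ndrg1 were higher in 41BB+ cells, the opposite direction to 72 h.

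**Figure D2:**
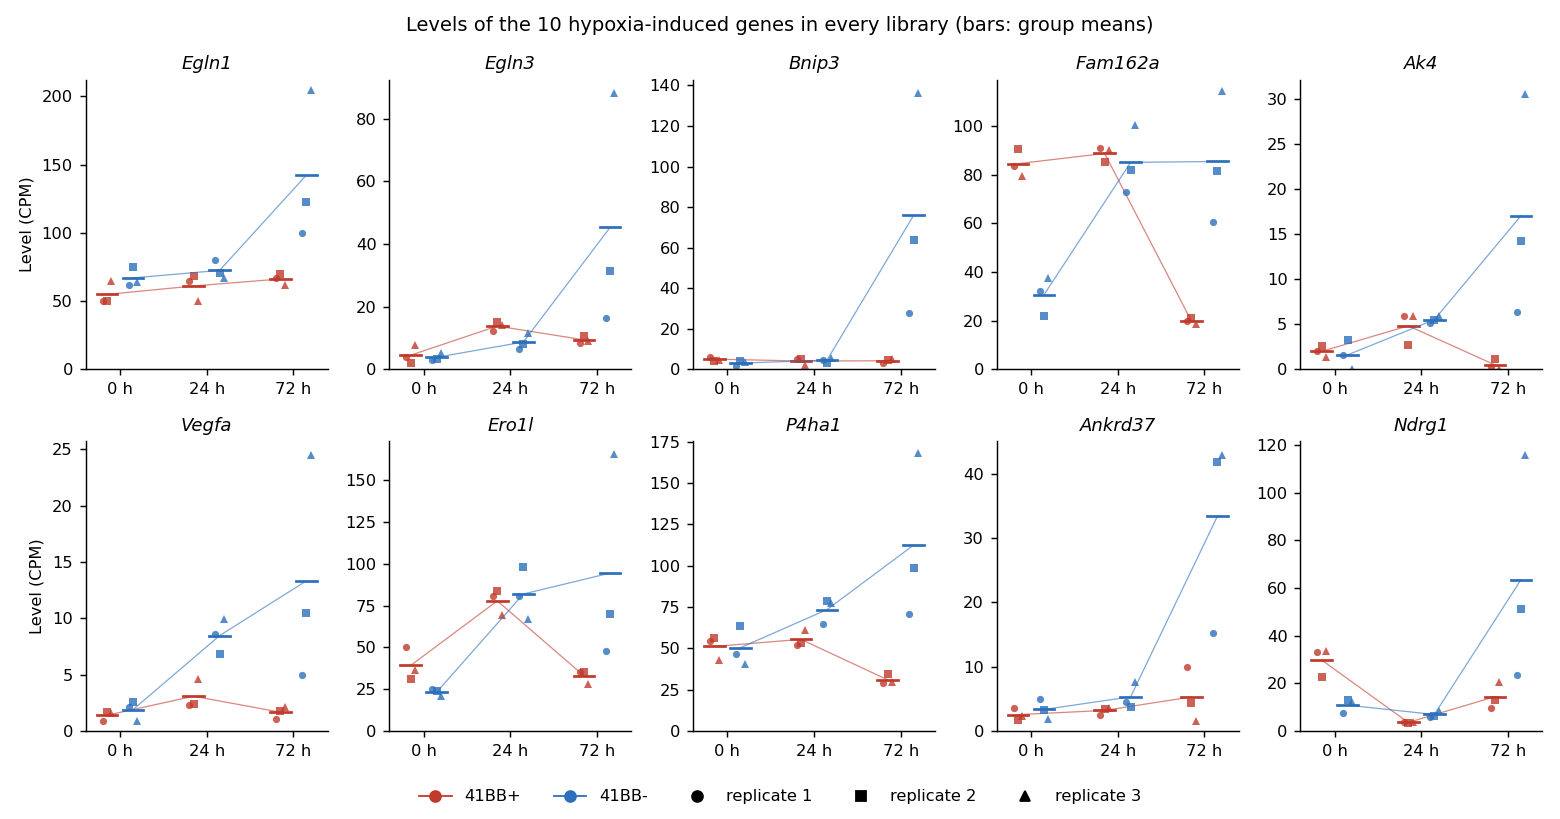
Level in CPM of each gene in every library at 0, 24 and 72 h, in 41BB+ (red) and 41BB- (blue) cells, with symbols for the replicate number and short bars for group means. At 72 h the 41BB- libraries lie above the 41BB+ libraries in all 10 panels, with replicate 3 highest and replicate 1 lowest.

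The oxygen sensors come first. Egln1 (ENSMUSG00000031987, chr8:124908587-124949324, minus strand, GRCm38) encodes the main prolyl hydroxylase of the HIF alpha subunit and is itself a HIF target. Its 41BB- libraries at 72 h had 100.1, 122 and 205 CPM, and its 41BB+ libraries had 67.2, 69.8 and 61.4. The other 4 groups had means between 54.9 ± 8.30 CPM (41BB+ at 0 h) and 72.5 ± 6.56 (41BB- at 24 h), below each of those 41BB- libraries. Between the populations it had a log2 fold change of -1.07 ± 0.19 at 72 h, the least of the 10, and -0.65 without replicate 3 of the 41BB- cells. From 0 h to 24 h Egln1 had log2 fold changes of 0.20 ± 0.20 in 41BB+ and 0.04 ± 0.20 in 41BB- cells, neither past the threshold (edgeR adjusted p = 0.458 and 0.879).

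Egln3 (ENSMUSG00000035105, chr12:54178981-54203860, minus strand) encodes the most strongly hypoxia-inducible hydroxylase of the family. At 0 h its levels were low in both populations, with 3.83, 2.00 and 7.63 CPM in 41BB+ and 3.10, 3.24 and 5.13 in 41BB- libraries. At 24 h all 3 libraries of 41BB+ cells were higher, at 12.2, 15.1 and 14.1 CPM, and those of 41BB- cells had 6.38, 8.04 and 11.7. This rise was called in 41BB+ cells, with a log2 fold change of 1.65 ± 0.52 and an edgeR adjusted p of 0.0194, and the call was lost without 41BB+ replicate 1 or 2 at 0 h (adjusted p = 0.0676 and 0.0738) and with limma voom (0.0904), while without replicate 3 at 0 h the rise was 2.35. In 41BB- cells the change of 1.10 ± 0.56 did not pass (adjusted p = 0.105), and the changes did not differ between the populations (0.55 ± 0.78, adjusted p = 0.698).

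At 72 h the order of the populations for Egln3 was the reverse of that at 24 h, where 41BB+ libraries were the higher ones without passing the test (0.78 ± 0.49, edgeR adjusted p = 0.597). The 41BB- libraries at 72 h had 16.3, 31.4 and 88.2 CPM, the widest spread of the 10 genes in that group with 5.40 times between the lowest and the highest. The 41BB+ libraries had 8.51, 10.8 and 8.89 CPM. This is a log2 fold change of -2.24 ± 0.47, and without 41BB- replicate 3 it was -1.25, so the fold change went from 4.73 to 2.37.

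Both genes of mitochondrial and cell death regulation followed, with different courses. Bnip3 (ENSMUSG00000078566, chr7:138890836-138909519, minus strand) encodes a protein of the outer mitochondrial membrane that takes part in mitophagy and cell death. It was low in 5 of the 6 groups, with means from 3.02 ± 1.28 CPM (41BB- at 0 h) to 4.98 ± 1.05 (41BB+ at 0 h). Only the 41BB- libraries at 72 h stood apart, with 27.9, 63.9 and 136 CPM against 3.02, 4.66 and 4.85 in 41BB+ cells. Thus 903 counts in 3 libraries stood against 45. The log2 fold change between the populations at 72 h was -4.15 ± 0.47, and -3.35 without 41BB- replicate 3.

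From 24 h to 72 h, Bnip3 had a log2 fold change of 4.24 ± 0.47 in 41BB- and 0.12 ± 0.55 in 41BB+ cells. Its relative Bnip3l, a mitophagy receptor that is also a HIF target, showed another course. Bnip3l rose over the same interval in both populations, by 2.22 ± 0.19 in 41BB- (edgeR adjusted p = 2.056e-10) and by 2.13 ± 0.19 in 41BB+ cells (adjusted p = 1.773e-10). At 72 h it had 100.1 ± 1.89 CPM in 41BB+ and 122 ± 29.8 in 41BB- cells, which did not differ by the test (log2 fold change -0.25 ± 0.17, adjusted p = 0.351).

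Fam162a (ENSMUSG00000003955, chr16:36043761-36071594, minus strand) encodes a small mitochondrial protein linked to hypoxia-induced cell death. In 41BB+ cells it was high at 0 h, with 83.4, 90.7 and 79.4 CPM, and as high at 24 h, with 91.0, 85.1 and 90.0. In 41BB- cells it had 32.2, 22.0 and 37.4 CPM at 0 h and 72.8, 82.0 and 100.3 at 24 h. The populations therefore did not overlap at 0 h and did at 24 h.

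The 0 h difference in Fam162a was a log2 fold change of 1.45 ± 0.20 (edgeR adjusted p = 8.825e-07). Its rise to 24 h in 41BB- cells was 1.39 ± 0.20 (adjusted p = 7.798e-07), against 0.12 ± 0.18 in 41BB+ cells (adjusted p = 0.647), and the changes differed between the populations by -1.27 ± 0.27 (adjusted p = 0.000734). These called results were kept in every alternative and with each compared library left out. At 72 h the 41BB+ libraries had 19.8, 21.2 and 18.6 CPM and the 41BB- libraries 60.3, 81.7 and 114, a log2 fold change of -2.07 ± 0.20. The difference here came with a lower level in 41BB+ cells than at 24 h (-2.09 ± 0.20), whereas in 41BB- cells the change from 24 h was 0.16 ± 0.18. Wdr5b, which overlaps Fam162a on the other strand, had 278 counts over all libraries against 4328 for Fam162a.

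Ak4 (ENSMUSG00000028527, chr4:101419277-101466995, plus strand) encodes an adenylate kinase of the mitochondrial matrix, which helps to balance adenine nucleotides. Its 358 counts over all libraries and the 336 of Vegfa were the fewest of the 10 genes. At 0 h means were 1.98 ± 0.63 CPM in 41BB+ and 1.60 ± 1.62 in 41BB- cells, and at 24 h 4.83 ± 1.89 and 5.50 ± 0.43. The rise in 41BB- cells was called, at 1.71 ± 0.72 with an edgeR adjusted p of 0.0446, but it rested on 15 counts at 0 h. Among the settings that ended the call were DESeq2 (adjusted p = 0.0561) and leaving out any 1 of 5 of its 6 libraries (up to 0.160). It held with limma voom (2.40) and without 41BB- replicate 2 at 0 h (2.75), both with a higher value.

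At 72 h the 41BB- libraries had 6.32, 14.2 and 30.7 CPM of Ak4, and the 41BB+ libraries had 0.274, 1.16 and 0. These were 203 and 5 counts, and the fitted log2 fold change of -5.07 ± 0.81 rests on those 5. It was -6.58 without 41BB+ replicate 2, -4.45 without 41BB+ replicate 3 and -4.27 without 41BB- replicate 3. The gene lay below its 24 h level in 41BB+ cells, with a log2 fold change of -3.22 ± 0.86 (-4.77 without 41BB+ replicate 2 at 72 h). In 41BB- cells it lay above, at 1.78 ± 0.59 (0.98 without replicate 3 at 72 h).

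Vegfa (ENSMUSG00000023951, chr17:46016993-46032369, minus strand) encodes the secreted growth factor that drives blood vessel formation, a classical HIF target. It was near the lower end of detection at 0 h, with 15 counts in 41BB+ and 18 in 41BB- libraries. After 24 h the 41BB- libraries had 8.62, 6.86 and 9.94 CPM, all above the 0 h libraries. This rise was 2.07 ± 0.57 (edgeR adjusted p = 0.00281). In 41BB+ cells the 24 h libraries had 2.27, 2.39 and 4.60 CPM and the change of 1.18 ± 0.62 did not pass (adjusted p = 0.145). The changes did not differ by the test (-0.90 ± 0.86, adjusted p = 0.528).

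Vegfa had the lowest p of the 10 genes between the populations at 24 h, with all 41BB+ libraries below the 41BB- libraries, but did not pass (-1.32 ± 0.53, edgeR adjusted p = 0.245). At 72 h it had 1.10, 1.75 and 2.16 CPM in 41BB+ and 5.01, 10.5 and 24.5 in 41BB- libraries. The log2 fold change was -2.95 ± 0.56, and -2.09 without 41BB- replicate 3. That library also set the direction from 24 h to 72 h in 41BB- cells, which was 0.81 ± 0.48 with it and -0.04 without it. Of the Vegfa relatives and receptors tested, Vegfb, Nrp1 and Nrp2 did not differ between the populations at 72 h (adjusted p = 0.557, 0.856 and 0.943).

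Ero1l and P4ha1 act on proteins in the endoplasmic reticulum. Ero1l (ENSMUSG00000021831, chr14:45283087-45318771, minus strand) encodes the oxidase that passes electrons from protein disulfide isomerase to oxygen. It had 50.1, 30.9 and 36.6 CPM in 41BB+ and 25.1, 23.7 and 20.8 in 41BB- libraries at 0 h. At 24 h it had 80.8, 83.5 and 69.3 CPM in 41BB+ and 80.7, 98.4 and 66.8 in 41BB- libraries. All 3 libraries at 24 h thus lay above those at 0 h in both populations.

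The rise of Ero1l was called in both, at 1.75 ± 0.36 in 41BB- (edgeR adjusted p = 0.000641) and 1.05 ± 0.34 in 41BB+ cells (adjusted p = 0.0261). The second call was lost when any 1 of 4 libraries was left out: 41BB+ replicate 2 or 3 at 0 h (adjusted p = 0.0804 and 0.0662), or replicate 1 or 2 at 24 h (0.0547 and 0.0552). At 72 h the 41BB+ libraries were back at 35.4, 35.5 and 28.0 CPM, while the 41BB- libraries had 47.7, 69.8 and 166. The log2 fold change between the populations was -1.49 ± 0.34, and -0.74 without 41BB- replicate 3. In 41BB- cells the change from 24 h to 72 h was 0.36 ± 0.32, and -0.40 without that library. Its paralog Ero1lb did not differ at 72 h (0.66 ± 0.35, adjusted p = 0.206).

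P4ha1 (ENSMUSG00000019916, chr10:59323296-59373304, plus strand) encodes the catalytic subunit of collagen prolyl 4-hydroxylase. It was level across both populations at 0 h, with 51.1 ± 7.24 CPM in 41BB+ and 50.4 ± 11.8 in 41BB- cells. At 24 h it had 55.4 ± 4.93 and 73.4 ± 7.77 CPM. None of the 5 tests on these 2 times called it. At 72 h the 41BB+ libraries had 28.8, 34.6 and 29.4 CPM, below all of their 24 h libraries, and the 41BB- libraries had 70.9, 98.5 and 168. Their log2 fold change was -1.83 ± 0.23, and -1.36 without 41BB- replicate 3.

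P4hb, whose product is protein disulfide isomerase and also the partner subunit of P4ha1, was lower in 41BB+ cells at 72 h as well, by the test. It had 161 ± 15.2 CPM in 41BB+ and 302 ± 26.8 in 41BB- cells (log2 fold change -0.87 ± 0.11, edgeR adjusted p = 1.159e-06). At 0 h P4hb had been higher in 41BB+ cells, by 1.32 ± 0.11 (adjusted p = 7.791e-11).

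Ankrd37 (ENSMUSG00000050914, chr8:45996902-46005707, minus strand) encodes an ankyrin repeat protein and is a HIF target. Its means lay between 2.54 ± 0.92 and 5.31 ± 2.08 CPM in 5 of the 6 groups. The 41BB- libraries at 72 h had 15.3, 41.9 and 42.9 CPM, above every other library, and the 41BB+ libraries at 72 h spread widely, with 9.88, 4.36 and 1.62. Between the populations at 72 h its log2 fold change was -2.62 ± 0.47, and -2.33 without 41BB- replicate 3. With 1 library left out it ran from -3.39 to -2.14, the first without 41BB+ replicate 1, the library nearest the 41BB- group. From 24 h to 72 h it was 2.80 ± 0.47 in 41BB- cells. In 41BB+ cells it was 0.78 ± 0.53, and -0.03 without replicate 1 at 72 h.

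Ankrd37 shares exonic bases with Ufsp2 on the other strand, which had 1612 counts over all libraries against 593 for Ankrd37. The sources used here do not say whether reads were counted by strand, so reads of the overlap cannot be assigned. Ufsp2 had 23.6, 15.4 and 15.4 CPM in 41BB+ and 20.6, 45.1 and 35.6 in 41BB- libraries at 72 h, with overlap between the groups.

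Ndrg1 (ENSMUSG00000005125, chr15:66929318-66969640, minus strand) encodes a cytoplasmic stress-responsive protein, and its course was the most unlike that of the others. In 41BB+ cells it was highest before stimulation, at 33.3, 22.6 and 33.4 CPM, fell to 3.97, 3.18 and 3.58 at 24 h, and had 9.60, 12.8 and 20.7 at 72 h. In 41BB- cells it had 7.44, 13.0 and 12.1 CPM at 0 h, 6.06, 6.15 and 8.52 at 24 h, and 23.4, 51.2 and 116 at 72 h. The populations were separated at all 3 times, with 41BB+ cells higher at 0 h and lower at 24 h and 72 h.

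The 24 h fall of Ndrg1 in 41BB+ cells was -3.00 ± 0.51 (edgeR adjusted p = 0.000169), against -0.72 ± 0.51 in 41BB- cells (adjusted p = 0.234). The changes differed between the populations by -2.27 ± 0.73 (adjusted p = 0.0311), a call that was lost with limma voom (0.231) and when any 1 of 10 of its 12 libraries was left out (0.0532 to 0.0960). The 0 h difference of 1.44 ± 0.45 (adjusted p = 0.0160) was lost with limma voom (0.0912) and without 41BB+ replicate 1 or 3 or 41BB- replicate 1 (0.0501, 0.0562 and 0.0860). At 24 h the difference of -0.83 ± 0.58 did not pass (adjusted p = 0.653). At 72 h it was -2.11 ± 0.43, and -1.27 without 41BB- replicate 3.

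**Figure D3:**
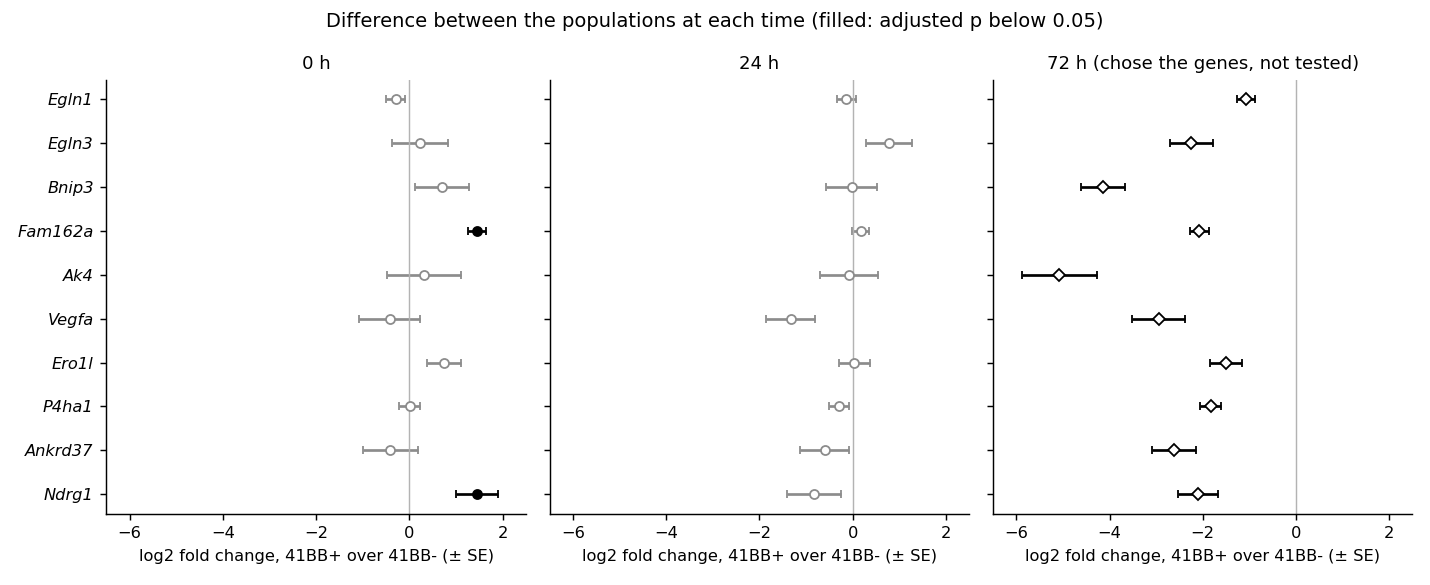
Log2 fold change of 41BB+ over 41BB- cells (x axis, ± SE) for each gene at 0, 24 and 72 h, filled where the edgeR adjusted p was below 0.05 and diamonds at 72 h, where the genes were chosen and not tested. Fam162a (1.45) and Ndrg1 (1.44) are filled at 0 h, no gene is filled at 24 h, and all 10 lie below 0 at 72 h, from -1.07 for Egln1 to -5.07 for Ak4.

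Counted over the 10 genes, 2 were called higher and 0 lower in 41BB+ cells at 0 h, where 22.2% and 17.3% of all genes tested were called. Beside the 0, edgeR's unadjusted p was under 0.05 for 0 genes in that direction, and DESeq2 and limma voom called 0. At 24 h 0 genes were called in either direction, with 1.67% of all genes called higher and 1.07% lower. Unadjusted, 1 gene (Vegfa, lower) was under 0.05, and DESeq2 and limma voom also called 0. Few genes of any kind were called at 24 h, so 0 of 10 is near that background.

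From 0 h to 24 h, 2 of the 10 rose (Egln3 and Ero1l) and 1 fell (Ndrg1) in 41BB+ cells, where 18.1% of all genes rose and 16.5% fell. In 41BB- cells 4 rose (Ak4, Vegfa, Ero1l and Fam162a) and 0 fell, where 29.0% of all genes rose and 27.6% fell. Beside the 0, no gene of the 10 fell at an unadjusted p under 0.05, and DESeq2 and limma voom called 0. The change differed between the populations in 2 of the 10, Fam162a and Ndrg1, both with the lower value in 41BB+ cells. For all genes 14.0% differed in that direction and 9.03% in the other, in which 0 of the 10 were called by edgeR, DESeq2 or limma voom or at an unadjusted p under 0.05. With 10 genes, these shares lie near those of all genes tested and say nothing of the set as a whole.

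The difference at 72 h was reached along 2 kinds of course after 24 h. Bnip3, Ndrg1, Ankrd37, Egln3 and Egln1 had higher levels at 72 h than at 24 h in every 41BB- library, by log2 fold changes of 4.24, 3.35, 2.80, 2.53 and 1.13. Without 41BB- replicate 3 at 72 h these were 3.445, 2.515, 2.52, 1.54 and 0.70, so the folds of Bnip3, Ndrg1 and Egln3 were lower by 1.73, 1.78 and 1.99 times. In 41BB+ cells the same 5 genes had changes between -0.49 (Egln3) and 2.07 (Ndrg1). Fam162a, Ero1l and P4ha1 instead had lower levels at 72 h in every 41BB+ library, by -2.09, -1.17 and -0.77, and their 24 h and 72 h libraries overlapped in 41BB- cells. Ak4 had both, and so did Egln3, whose 41BB+ libraries at 72 h all lay below those at 24 h (-0.49). Vegfa lay lower in 41BB+ cells (-0.81) with overlap in 41BB- cells. These values share the 72 h libraries that chose the genes and carry no test. Over this interval 22.6% of all genes tested rose and 18.2% fell in 41BB- cells, and 26.2% rose and 26.3% fell in 41BB+ cells. The share of all genes whose libraries were separated this way was not counted. Both courses were also seen in the 20 glycolysis genes tested. Of these, 15 rose and 1 fell in 41BB- cells, and 3 rose and 12 fell in 41BB+ cells.

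**Figure D4:**
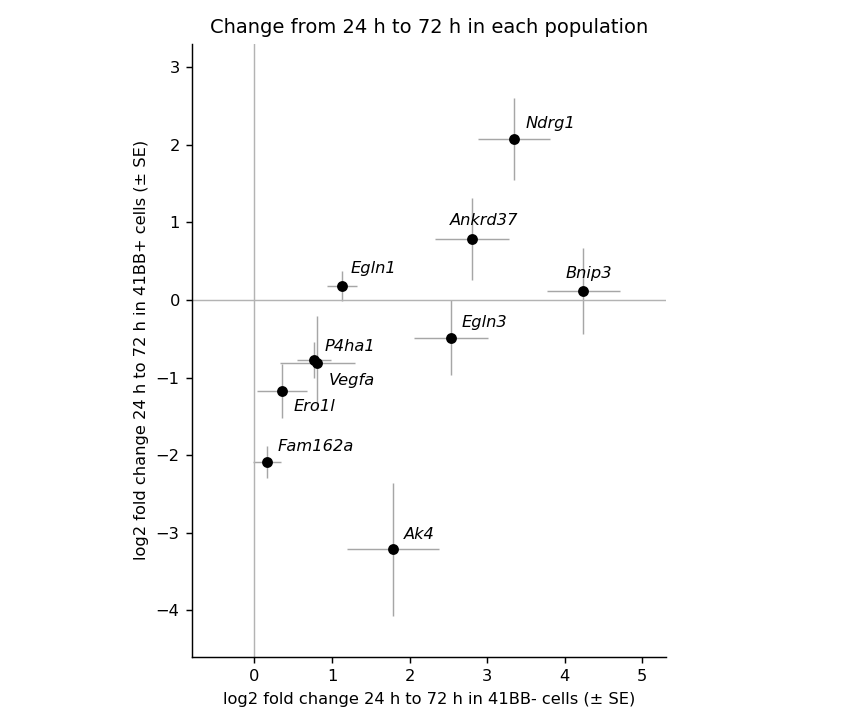
Log2 fold change from 24 h to 72 h in 41BB- cells (x axis) and in 41BB+ cells (y axis), with SE bars, for each gene. Bnip3 lies far to the right near 0 on the y axis (4.24 and 0.12), Fam162a lies low near 0 on the x axis (0.16 and -2.09), and Ndrg1 was higher at 72 h in both (3.35 and 2.07).

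Levels of different genes were compared per kilobase of exonic bases. In 41BB- cells at 72 h the order ran from Fam162a (100.5 ± 31.9 CPM per kb) through Egln1 (39.6 ± 15.3), Bnip3 (33.6 ± 24.3), P4ha1 (27.4 ± 12.2), Ankrd37 (21.7 ± 10.2), Ero1l (17.9 ± 11.9), Egln3 (17.0 ± 14.2) and Ndrg1 (9.62 ± 7.19) to Ak4 (3.68 ± 2.67) and Vegfa (3.11 ± 2.35). From Egln1 to Vegfa, neighbours in this order differed by less than the larger of their 2 SDs. In 41BB+ cells at 72 h Fam162a (23.4 ± 1.57 CPM per kb) and Egln1 (18.4 ± 1.20) led again, while Bnip3, at 1.84 ± 0.44, stood eighth, after Ndrg1 at 2.18 ± 0.87.

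The 3 libraries of 41BB- cells at 72 h did not agree on the size of the difference. All 10 genes were lowest in replicate 1 and highest in replicate 3, and of all genes tested 31.0% were lowest in replicate 1, 34.2% highest in replicate 3, and 16.0% both with replicate 2 between. Against the mean of the 3 libraries on the log2 CPM scale, the median of the 10 genes was -1.01 in replicate 1 and 1.05 in replicate 3. Total counts of replicates 1 to 3 were 3796329, 3440487 and 4239795, and mitochondrial shares were 9.56%, 9.03% and 8.84%. Their part in the spread was not tested.

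Glycolysis genes were spread the same way, with replicate 1 lowest and replicate 3 highest in 18 of 20, and so were 13 of 24 other hypoxia-induced genes. Genes of oxygen sensing and HIF subunits were not, with 1 of 14. The medians in replicates 1 and 3 were -0.38 and 0.38 for glycolysis genes and 0.02 and 0.03 for oxygen sensing genes. In 41BB+ cells at 72 h the highest library had at most 2.16 times the level of the lowest for the 8 genes other than Ankrd37 and Ak4.

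**Figure D5:**
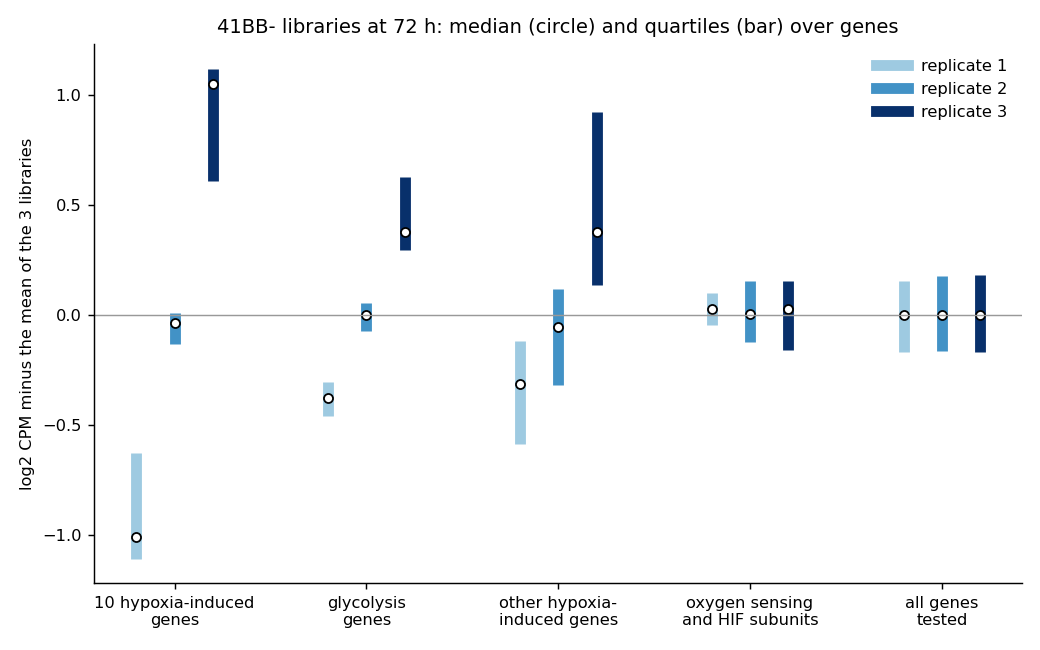
Deviation of each 41BB- library at 72 h from the mean of the 3 on the log2 CPM scale, as median (circle) and quartiles (bar) over the genes of each list. The 10 genes lie near -1.01 in replicate 1 and near 1.05 in replicate 3, glycolysis genes near -0.38 and 0.38, and all genes tested near 0.

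Hif1a, Arnt, Vhl, Egln2 and Hif1an, which encode HIF subunits and parts of its oxygen sensing, did not pass the test between the populations at 72 h. Of 15 listed genes of oxygen sensing and HIF subunits, which leave out Egln1 and Egln3, 14 were tested, and at 72 h 1 was higher in 41BB+ cells (Crebbp, a HIF coactivator, 0.38 ± 0.13, edgeR adjusted p = 0.0301, lost with limma voom and without 41BB- replicate 2 at 0.0518 and 0.0668) and 0 were lower, where 6.71% of all genes were called higher and 12.2% lower. Beside the 0, 1 gene had an unadjusted p under 0.05, and DESeq2 and limma voom called 0. Counts this small lie near the background. The median log2 fold change of the list was -0.01, against -0.04 over all genes tested. Hif1a had 93.6 ± 14.4 CPM in 41BB+ and 88.3 ± 12.8 in 41BB- cells at 72 h (0.12 ± 0.15, adjusted p = 0.651). Arnt (0.05 ± 0.18), Vhl (0.28 ± 0.29), the third hydroxylase gene Egln2 (0.11 ± 0.19) and Hif1an, which encodes the asparagine hydroxylase of HIF (-0.08 ± 0.18), had no call either (adjusted p = 0.881, 0.555, 0.762 and 0.835).

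At 0 h 4 of the 14 genes were higher and 5 lower in 41BB+ cells, at a time when 22.2% of all genes were called higher and 17.3% lower. Hif1a was higher (0.42 ± 0.15, edgeR adjusted p = 0.0293), and Arnt (-0.75 ± 0.18, 0.00106) and Egln2 (-0.49 ± 0.19, 0.0404) were lower. The Hif1a call was lost with DESeq2 (0.0586), with RLE factors, with no filter and without any 1 of 5 of its 6 libraries (up to 0.126), and that of Egln2 with no filter (0.126) and without any 1 of 5 libraries. Crebbp (-0.88 ± 0.13, adjusted p = 1.628e-06) and the HIF antagonist Cited2 (-1.21 ± 0.22, adjusted p = 6.682e-05) were lower, and Elob, of the ubiquitin ligase that holds Vhl, was higher (0.88 ± 0.17, 0.000128). At 24 h none of the 14 genes was called or had an unadjusted p under 0.05, and DESeq2 and limma voom called 0.

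Among 35 other hypoxia-induced genes outside glycolysis, 24 were tested. At 72 h 9 were lower and 1 higher in 41BB+ cells, beside 12.2% and 6.71% of all genes, with a median log2 fold change of -0.63 against -0.04 over all genes. The cytokine gene Mif (-1.35 ± 0.20, edgeR adjusted p = 3.589e-05), the carbonic anhydrase gene Car12 (-2.07 ± 0.40, 0.000518), the transferrin receptor gene Tfrc (-0.88 ± 0.16, 0.000563) and Jmjd6 (-0.92 ± 0.19, 0.000903) had the smallest p. Ddit4, which encodes an inhibitor of the mTOR pathway, was lower too (-1.08 ± 0.30, 0.0111). Without 41BB- replicate 3, 5 of the 9 kept their call, and Ddit4 (-0.51, adjusted p = 0.291), Mxi1, Plod2 and Higd1a lost it. Ddit4 also lost it without 41BB+ replicate 1 or 2 (0.0602 and 0.0635).

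At 0 h 5 of these 24 genes were higher and 6 lower in 41BB+ cells, near the 22.2% and 17.3% of all genes called. Higher ones included Mif (2.65 ± 0.21, edgeR adjusted p = 5.417e-10), Car12 (2.14 ± 0.28, 5.1e-07) and Tfrc (1.39 ± 0.18, 1.344e-06). Bnip3l (-1.16 ± 0.18, 6.475e-06) had the smallest p of the lower ones, and Ddit4 was not called (-0.53 ± 0.32, 0.205). At 24 h none was called, 2 had an unadjusted p under 0.05 and DESeq2 and limma voom called 0.

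From 24 h to 72 h 11 of the 24 rose and 4 fell in 41BB- cells, where 22.6% of all genes rose and 18.2% fell. In 41BB+ cells 10 rose and 8 fell, where 26.2% rose and 26.3% fell. Narf rose by 2.65 ± 0.21 in 41BB- (edgeR adjusted p = 6.043e-11) and by 2.62 ± 0.22 in 41BB+ cells (5.185e-11). Ddit4 rose by 2.83 ± 0.33 in 41BB- (1.122e-07) and by 0.93 ± 0.32 in 41BB+ cells (0.0163, and 0.0629 without replicate 3 at 72 h). Bnip3l, Narf and Ddit4 thus rose in both populations, where the values of Bnip3 were higher at 72 h in 41BB- cells alone.

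Glycolysis genes induced by hypoxia are the closest set outside the 10. Of 21 listed, 20 were tested, and 15 were lower and 0 higher in 41BB+ cells at 72 h, where 12.2% and 6.71% of all genes were called, with a median log2 fold change of -1.54. Beside the 0, none was higher at an unadjusted p under 0.05, and DESeq2 and limma voom called 0. Ldha (-1.63 ± 0.12, edgeR adjusted p = 9.21e-10) and Tpi1 (-2.50 ± 0.18, 2.545e-09) had the smallest p, and 14 of the 15 kept their call without 41BB- replicate 3. At 0 h the direction was the opposite, with 10 of the 20 called for a higher level in 41BB+ cells and 3 for a lower one (22.2% and 17.3% of all genes) and a median of 0.55, and both Ldha (1.91 ± 0.13, edgeR adjusted p = 2.073e-12) and Tpi1 (2.63 ± 0.22, 6.441e-10) were higher. The glycolysis genes were already known to be lower at 72 h when the lists were written, so the count is no independent support.

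Genes of the unfolded protein response and ATF4, which Ero1l also belongs with, included 8 of 13 tested that were lower and 0 that were higher at 72 h (12.2% and 6.71% of all genes), with none higher at an unadjusted p under 0.05 and 0 called by DESeq2 and limma voom. The chaperone genes Hsp90b1 (-0.75 ± 0.09, edgeR adjusted p = 2.061e-06) and Hspa5 (-0.76 ± 0.12, 3.063e-05) were among them. At 0 h 41BB+ cells had higher levels of 8 of the 13 and a lower level of 1 (22.2% and 17.3% of all genes), with a median of 1.08, and Hsp90b1 (1.40 ± 0.10, edgeR adjusted p = 3.702e-12) and Hspa5 (1.505 ± 0.12, 2.997e-11) were among the higher ones. Among the relatives and receptors of the 10 genes, P4hb was lower at 72 h, as given above, and Ndrg3, of the same family as Ndrg1, was higher (0.43 ± 0.14, edgeR adjusted p = 0.0359). Leaving out 41BB- replicate 3 ended the call of Ndrg3 (0.39, adjusted p = 0.108), as did limma voom and leaving out some other libraries.

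Of the genes outside the 10, those whose log2 CPM over the 18 libraries was most like the mean standardised profile of the 10 were Pfkp (Pearson r = 0.915), Gpi1 (0.907), Prelid2 (0.881), Pgm1 (0.874) and Pfkl (0.864). Without the 3 libraries of 41BB- cells at 72 h the values were 0.666, 0.582, 0.346, 0.0825 and 0.827. Pfkp, Gpi1, Pgm1 and Pfkl encode enzymes of sugar phosphate metabolism, and Prelid2 a protein of the PRELI family. Over 18 libraries P4ha1 was the most like the other 9 genes (0.888) and Ndrg1 the least (0.432), and without those 3 libraries Ndrg1 had -0.642. All points share libraries and their depth, so these are descriptions.

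At 72 h mitochondrial genes took 10.5% to 11.4% of counts in 41BB+ and 8.84% to 9.56% in 41BB- libraries. With mitochondrial and ribosomal protein genes left out of the fit, no log2 fold change of the 10 genes moved by more than 0.001. Markers of the sorted cells and of others were read in the same libraries. The 6 CD8 T cell markers were all present, at 1102 to 3214 CPM summed. At 72 h 6 of 7 myeloid markers, Lyz2 and Csf1r among them, were at 0 in both populations, with a sum of 0 to 0.539 CPM in 41BB+ and 0.263 to 0.872 in 41BB- libraries. B cell markers summed to 531 to 592 CPM in 41BB+ and 420 to 500.5 in 41BB- libraries at 72 h, nearly all of it Ighm. Stromal and endothelial markers, mostly Pecam1, summed to 208 to 282 CPM in 41BB+ and 106 to 122 in 41BB- libraries at 72 h. The CD4 T cell markers Cd4 and Foxp3 summed to 9.70 to 25.3 and 4.25 to 8.17 CPM, most of it Foxp3. Cd4 itself had 0 to 0.549 CPM in 41BB+ and 0.236 to 1.16 in 41BB- libraries. The part of these markers in the 72 h differences was not tested. The 4 markers listed for natural killer cells were Ncr1, Klrb1c, Klrk1 and Eomes. At 0 h they summed to 540.5 to 610.5 CPM in 41BB+ and 55.8 to 65.2 in 41BB- libraries, beside the Fam162a and Ndrg1 differences. This sum is not split by gene here, so it does not show that such cells were present, and its part in those differences was not tested. At 24 h replicate 2 had 45.9 CPM of Lyz2 in 41BB+ and 6.86 in 41BB- cells, where replicates 1 and 3 of both populations had 0.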

How the data were processed

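RNA-seq read counts of 18 libraries (2 sorted CD8+ T cell populations at 0, 24 and 72 h, 3 each) were analysed. Per the labels' protocols, a SMARTer Stranded Total RNA kit was used. Per the submitters' processing notes, the tools were FastQC 0.11.9, Trimmomatic 0.38, HISAT2 2.2.1 and featureCounts, with the build GRCm38. The deposited table holds unnormalized whole-number counts per Ensembl gene. The sources used here give no annotation release, strand setting or treatment of multimapping reads. GENCODE M21 gave symbols for 55227 of 55487 IDs, and promoters came from RefSeq (GRCm38.p6).

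Here, edgeR 4.0.16 (R 4.3.3) kept 13150 genes by filterByExpr (minimum count 10, total 15). TMM factors and robust quasi-likelihood dispersions were fitted over all 18 libraries, with 1 mean per group and no block. Each contrast had a quasi-likelihood F-test, Benjamini-Hochberg adjusted over all genes tested, at a threshold of 0.05. The fit was tested on simulated data. P-values judge a group difference against the spread between libraries. CPM is counts over the library total times 1000000, and SDs are over 3 libraries.

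The settings were changed 1 at a time to DESeq2 1.42.0, to RLE factors, to no filter, to the replicate number as a block (over all times or within each), to limma 3.58.1 voom with quality weights, to a table without mitochondrial and ribosomal protein genes, to only the compared groups, and to leaving out each compared library. The 10 genes and 5 pathway lists were chosen with earlier results of these data known. Named by rule were the 10 genes, up to 4 genes with the smallest adjusted p of each list and contrast printed, Hif1a, Arnt, Vhl, Egln2, Hif1an, Bnip3l and Ddit4, and the 5 genes most like the mean profile. Other list genes named beside counts were chosen after their values were seen. Aldoa and Ddit3 have 2 Ensembl IDs each, and the one overlapping the RefSeq gene was used. Python 3.11.15 with pandas 2.3.3 and matplotlib 3.10.9 did the other steps. The deposited sample sheet was not used. Results for some list and marker genes, and 1 list's count of calls, are not reported here.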

Additional observations from a re-analysis of the deposited data

Results flagged for a closer look

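The change from 0 h to 24 h differed between the populations by edgeR's interaction test in 2 of the 10 genes. For Fam162a the difference of the log2 changes was -1.27 (41BB+ minus 41BB-), where the level moved from 84.5 ± 5.71 to 88.7 ± 3.16 CPM in 41BB+ and from 30.6 ± 7.82 to 85.0 ± 14.0 CPM in 41BB- cells. For Ndrg1 it was -2.27, where the level moved from 29.8 ± 6.20 to 3.58 ± 0.39 CPM in 41BB+ and from 10.8 ± 2.97 to 6.91 ± 1.40 CPM in 41BB- cells.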

How the results depend on the processing

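Of the values with a main setting and alternatives, 0 reversed a called direction. At 24 h the genes that differed between the populations numbered 361, and 577 with a replicate block within each time, 550 with limma voom and 181 to 261 with 1 library left out, and 0 of the 10 genes were called in any of these. With limma voom, 1 of the 10 genes instead of 2 was higher in 41BB+ cells at 0 h, 1 instead of 2 rose in 41BB+ cells to 24 h, and 1 instead of 2 had a different change between the populations. With 1 library left out these counts ran from 1 to 2, 0 to 2 and 1 to 2. Other hypoxia-induced genes at 72 h numbered 5 to 9 lower and 1 to 2 higher with 1 library left out, with 5 and 2 without 41BB- replicate 3. The labels give an experiment number as replicate and do not say what its libraries share. Over 12692 autosomal genes, deviations of libraries of 1 time and number had correlations of -0.0427 to 0.243 (median 0.107, 5 of 9 above 0.1), against a median of -0.0634 (0 of 18 above 0.1) for other numbers at 1 time. Since 4 of the 9 pairs were not above 0.1, the number was not used as a block in the reported fit. That 14 of 18 libraries correlated best with their own number is a hint from the data that it marks something shared. A replicate block over all times left 354 genes at 24 h and ended the Ak4 call in 41BB- cells (adjusted p = 0.0543). Depth limits Ak4 and Vegfa most, with 5 and 18 counts in 41BB+ cells at 72 h.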
